A study of Homo sapiens with 36 samples.

Results

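The 6 claudin genes CLDN1, CLDN3, CLDN4, CLDN7, CLDN8 and CLDN12 were followed in the human breast cancer cell line ZR-75-1 under estrogen, progestogens and an androgen. They were taken by name from the array's probe annotation, with every probe that carries 1 of these symbols, which gave 7 of 48803 probes. All 7 probes passed the filter on dim probes, and the 6 genes were among 9902 genes tested. CLDN8 had 2 probes and each of the others had 1. CLDN8 was chosen by its measured changes with medroxyprogesterone acetate (MPA) and dihydrotestosterone (DHT) in earlier results of these data, so its values in any comparison with MPA or DHT are given as a description, with no test.

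Claudins are membrane proteins that cross the membrane of epithelial cells repeatedly and join neighbouring cells in the tight junction, where the combination of claudins present sets which ions and small molecules pass between cells. Inside the cell most of them bind scaffold proteins, among them TJP1 (ZO-1), which tie the junction to actin. In breast tumours, low levels of CLDN3, CLDN4 and CLDN7 are among the features that define the claudin-low subtype, whereas luminal lines such as ZR-75-1 keep an epithelial phenotype.

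The series held 36 Illumina HumanWG-6 v3 arrays of total RNA in 9 groups of 4, and asked how estradiol (E2) and progestogens or an androgen act together. Groups were E2+DHT, E2+MPA, E2+progesterone (E2+P4), E2pre+P4, DHT, MPA, P4, E2 and vehicle. Each hormone was used at 10 nM for 16 h, except that E2 in E2pre+P4 was given for 72 h. By the labels P4 was present in the last 16 h of that period, by the methods it followed it, and no group had E2 alone for 72 h. All cells, vehicle included, were ZR-75-1 cells of passage 16 in medium stripped of hormones and free of phenol red, so that every value is from 1 cell line. P4 is the natural progestin, MPA is a synthetic progesterone derivative that carries an added methyl group and an acetate, and DHT is an androgen that lacks the side chain of progesterone. Whether the 4 replicates of a group were separate cultures is not stated in the labels, so each p-value covers the spread between these samples, which may be technical.

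Values are log2 normalised intensities, and a probe counted as detected on an array at a detection p under 0.01. Levels of different probes are not on a common scale and are not set against each other. Between 12191 and 14806 probes were detected per array (median 13403.5). Changes are differences of group means with the standard error (SE) of a linear model over all 36 arrays (limma), and a call needed an adjusted p under 0.05 (Benjamini-Hochberg, across all 9902 genes). The 8 comparisons with vehicle share the same 4 vehicle arrays. All 8 luminal epithelial markers (ESR1, GATA3, FOXA1, KRT8, KRT18, KRT19, EPCAM and CDH1) were detected on 36 of 36 arrays. Among markers of other cell types, KRT5, KRT14, PTPRC, CD3E, CDH5, KDR, COL1A2, COL3A1, DCN, LUM and PDGFRB were detected on 0 arrays. CD14, LYZ and PECAM1 were detected on 1 array each, VWF on 9, CD68 on 35, and ACTA2 and COL1A1 on 36.

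The arrays labelled E2 replicate 2 and E2pre+P4 replicate 2 stood apart, each at the levels of the other's group. FKBP5, a co-chaperone of steroid receptors, read 11.51 on E2 replicate 2, whereas the remaining 3 arrays of its group read 9.52 to 10.04. Conversely, E2pre+P4 replicate 2 read 9.35 and the remaining 3 of its group 11.20 to 11.48. The claudins showed the same exchange for CLDN3, CLDN7 and CLDN8. CLDN8 read 9.20 on E2 replicate 2 (8.13 to 8.52 on the remaining 3) and 8.48 on E2pre+P4 replicate 2 (8.74 to 9.14 on the remaining 3). The labels were kept, and main results that rest on these arrays are also given without both of them.

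CLDN8, known as a barrier-forming claudin of the distal nephron, stood above vehicle on every array that had received MPA or DHT, with or without E2, and stood higher with DHT than with MPA. In bulk RNA, more cells with the transcript and more transcript per cell cannot be told apart. The first of its probes (ILMN_2072568), the brighter one, was detected on 36 of 36 arrays. With DHT alone it read 11.39, 10.92, 10.92 and 11.27, and with MPA alone 10.22, 10.10, 9.93 and 9.80. With P4 alone it read 8.54, 8.51, 8.75 and 8.66, against 8.84, 8.15, 8.13 and 8.54 with vehicle. The arrays of DHT, MPA and vehicle thus formed 3 ranges that did not overlap, and the P4 arrays lay inside the range of the vehicle arrays.

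The group means of CLDN8 were 11.13 ± 0.24 with DHT, 10.01 ± 0.18 with MPA and 8.62 ± 0.11 with P4, against 8.42 ± 0.34 with vehicle (SD, n = 4 each). These means correspond to a change against vehicle of 2.71 ± 0.18 (SE) with DHT, or 6.56-fold (95% interval of the log2 change 2.35 to 3.08). With MPA the change was 1.60 ± 0.18, or 3.02-fold (interval 1.23 to 1.96). CLDN8 had the 7th largest fitted increase of all 9902 genes with DHT and the 151st with MPA. It was chosen for its changes with these hormones, so nothing is read from these ranks. The P4 change of 0.20 ± 0.18 (interval -0.17 to 0.57) was not called (adjusted p = 0.440, limma).

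The same order held in the presence of E2. CLDN8 read 11.22, 10.93, 11.09 and 11.01 with E2+DHT, and 9.94, 9.90, 9.86 and 9.94 with E2+MPA. With E2+P4 it read 8.89, 8.54, 8.75 and 8.67, against 8.52, 9.20, 8.29 and 8.13 with E2, where 9.20 is the array in doubt. E2+DHT and E2+MPA overlapped neither each other nor the E2 arrays.

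Against E2, CLDN8 was higher by 2.53 ± 0.18 with E2+DHT (5.77-fold) and by 1.37 ± 0.18 with E2+MPA (2.59-fold). Without the arrays in doubt these changes were 2.75 and 1.60. E2+P4 differed from E2 by 0.18 ± 0.18 (adjusted p = 0.9998), or by 0.40 without the arrays in doubt (adjusted p = 0.9998), when the arrays of E2+P4 and E2 no longer overlapped. 0 genes were called in that comparison, 92 had an unadjusted p under 0.05, and 8 were called without both arrays. Against vehicle, CLDN8 was higher by 2.65 ± 0.18 with E2+DHT and by 1.49 ± 0.18 with E2+MPA, and the change with E2+P4 of 0.30 ± 0.18 was not called (adjusted p = 0.419).

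**Figure D1:**
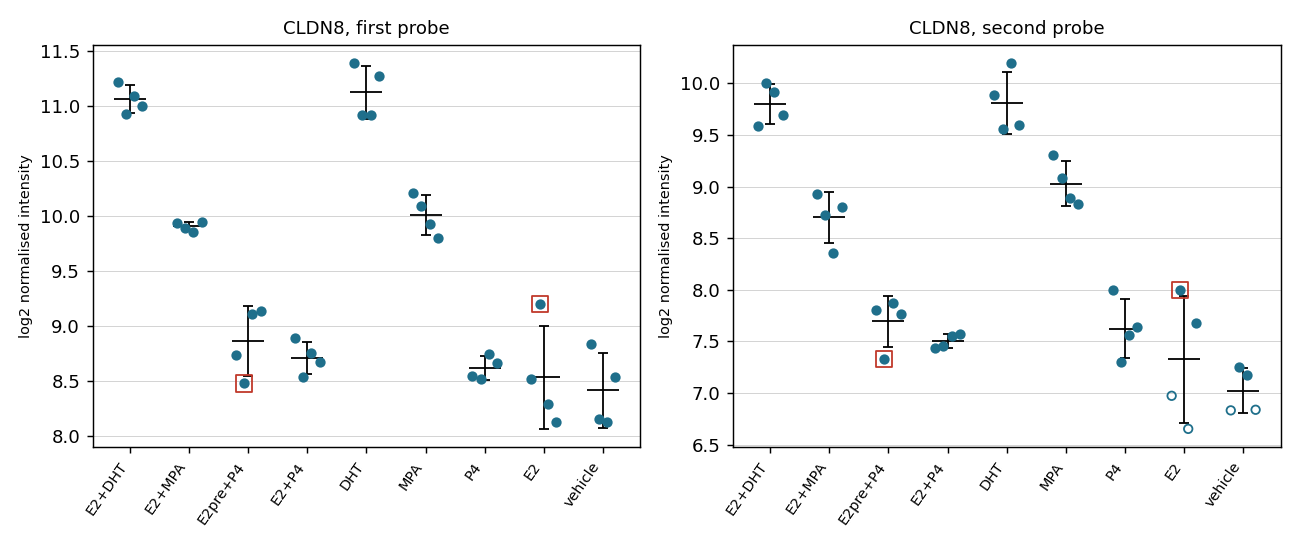
CLDN8 on each of 36 arrays, first probe (left) and second probe (right), as log2 normalised intensity (vertical axis) by treatment group (horizontal axis); filled points were detected, open points were not, bars give the mean and SD of 4 arrays, and red squares mark the arrays in doubt. On the first probe the DHT-containing arrays lie at 10.92 to 11.39 and the MPA-containing arrays at 9.80 to 10.22, above the vehicle arrays at 8.13 to 8.84.

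E2 itself left CLDN8 near its vehicle level. The E2 arrays averaged 8.54 ± 0.47, against 8.42 ± 0.34 with vehicle (SD, n = 4 each), a change of 0.12 ± 0.18 that was not called (adjusted p = 0.885) and that was -0.10 without the arrays in doubt. Adding E2 to DHT changed CLDN8 by -0.07 ± 0.18 (interval -0.43 to 0.30), adding it to MPA by -0.10 ± 0.18 (interval -0.47 to 0.27) and adding it to P4 by 0.10 ± 0.18 (adjusted p = 0.931). The interactions, that is the change a hormone gave with E2 minus its change without E2, were -0.19 ± 0.25 for DHT, -0.22 ± 0.25 for MPA and -0.02 ± 0.25 for P4 (adjusted p = 0.984 for P4). Their 95% intervals ran from -0.70 to 0.33 for DHT, from -0.74 to 0.30 for MPA and from -0.54 to 0.49 for P4. These values rest on the E2 group, and without the arrays in doubt they were 0.04 for DHT, 0.0002 for MPA and 0.20 for P4 (adjusted p = 0.731 for P4). None thus kept its negative sign on the first probe. On the second probe, described below, the interactions were -0.31 ± 0.30 for DHT, -0.63 ± 0.30 for MPA and -0.42 ± 0.30 for P4. Their intervals there ran from -0.92 to 0.30, from -1.24 to -0.02 and from -1.03 to 0.18. Without the arrays in doubt all stayed negative on that probe, at -0.09, -0.40 and -0.20. Adding E2 changed the second probe by -0.01 ± 0.21 with DHT, -0.33 ± 0.21 with MPA and -0.12 ± 0.21 with P4.

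After long E2, CLDN8 with P4 read 8.74, 8.48, 9.11 and 9.14, and the lowest of these is the array in doubt. E2pre+P4 averaged 8.87 ± 0.32, against 8.42 ± 0.34 with vehicle (SD, n = 4 each). The change of 0.45 ± 0.18 was not called (adjusted p = 0.124), although 6.18% of all genes were called in this comparison. Without both arrays in doubt it was 0.58 ± 0.16 and was called (adjusted p = 0.0209), with 3 of 3 E2pre+P4 arrays above 3 of 4 vehicle arrays. E2pre+P4 differed from E2+P4 by 0.16 ± 0.18 (adjusted p = 0.9995), and by 0.29 without both arrays (adjusted p = 0.9997).

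Structure and response of CLDN8 were set side by side in 6 pairs of steroids at the same dose and time, and since CLDN8 had been picked out for these differences they carry no test. DHT stood above P4 by 2.51 ± 0.18 (1.42% of all genes called), MPA above P4 by 1.39 ± 0.18 (0.374%) and DHT above MPA by 1.12 ± 0.18 (0.303%). In the presence of E2 these differences were 2.35 (0.747%), 1.20 (0.465%) and 1.15 (0.293%), each with an SE of 0.18. In all 6 pairs the arrays of the steroids did not overlap. MPA and P4, which differ by the added methyl and acetate groups, thus stood 2.63-fold apart without E2 and 2.29-fold apart with E2. Whether these groups have a part in the difference was not tested.

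The second CLDN8 probe (ILMN_1746676) was dimmer and was detected on 32 of 36 arrays, with 2 of 4 in the vehicle group and 2 of 4 in the E2 group. It read 9.89, 9.56, 10.20 and 9.60 with DHT and 9.31, 9.08, 8.89 and 8.83 with MPA, against 6.83, 7.25, 7.18 and 6.84 with vehicle. The change against vehicle was 2.79 ± 0.21 with DHT, 2.01 ± 0.21 with MPA, 2.78 ± 0.21 with E2+DHT and 1.68 ± 0.21 with E2+MPA. DHT stood 0.78 above MPA on this probe, against 1.12 on the first probe. The second probe also read higher with P4 than with vehicle on all 4 arrays (7.30 to 7.995 against 6.83 to 7.25), a change of 0.60 ± 0.21 that was not called (adjusted p = 0.126 over all probes that passed). E2+P4 likewise did not overlap vehicle on this probe, with a change of 0.48 ± 0.21 (adjusted p = 0.285), against 0.30 with overlap on the first probe. For E2pre+P4 its change was 0.67 ± 0.21 (adjusted p = 0.0581), and 0.79 without both arrays in doubt (adjusted p = 0.0154). Across the 36 arrays, which are the same hybridisations for both probes, the 2 probes had a Pearson r of 0.952, and 0.992 across the 9 group means.

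The order of the 9 group means of CLDN8 was DHT, E2+DHT, MPA, E2+MPA, E2pre+P4, E2+P4, P4, E2 and vehicle. Gaps without overlapping arrays separated E2+DHT from MPA (1.05) and E2+MPA from E2pre+P4 (1.04). The other 6 neighbours in this order overlapped, with gaps of 0.07 to 0.16. On the second probe the same 2 gaps were free of overlap (0.77 and 1.01).

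Among the other 5 claudins, 1 call was made over all comparisons, for CLDN1 with DHT. CLDN1, a principal barrier claudin of epithelia and epidermis, was lower on every DHT array than on every vehicle array. It read 12.99, 13.46, 13.18 and 13.34 with DHT, against 14.01, 13.60, 13.71 and 13.69 with vehicle. The change was -0.51 ± 0.14, or 0.702-fold (adjusted p = 0.0466). This was the only call among these 5 claudins with DHT, in a comparison in which 2.4% of all genes were called.

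The call for CLDN1 lay close to the threshold. Without vehicle replicate 1, the highest of all 36 arrays for CLDN1 after normalisation, the change was -0.43 (adjusted p = 0.242). The call was also lost without vehicle replicate 3 (-0.52, adjusted p = 0.0807) or 4 (-0.53, 0.0560) and without DHT replicate 1 (-0.43, 0.185), 3 (-0.49, 0.123) or 4 (-0.54, 0.0612), and it was kept without vehicle replicate 2 or DHT replicate 2. Before normalisation, vehicle replicate 1 had the lowest CLDN1 signal of the 4 vehicle arrays (8308.2, against 10483.5 to 16435 on the others).

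CLDN1 was below vehicle in all 8 treatment groups, and was so as well with cyclic loess, without background correction, without the arrays in doubt and in the deposited value table (-0.01 for E2pre+P4 there). It read 13.07, 13.55, 13.28 and 13.33 with MPA, and 13.47, 13.47, 13.32 and 13.52 with P4. Neither group overlapped the vehicle arrays, and neither change was called (0% of all genes were called with P4 and 1.96% with MPA), at -0.44 ± 0.14 for MPA (adjusted p = 0.0879) and -0.31 ± 0.14 for P4 (adjusted p = 0.170). With P4, 0 genes of 9902 were called and 2608 had an unadjusted p under 0.05. The MPA change was called when vehicle replicate 2 was left out (-0.50, adjusted p = 0.0322).

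E2+DHT averaged 13.43 ± 0.15, E2+MPA 13.58 ± 0.30, E2+P4 13.41 ± 0.17, E2pre+P4 13.56 ± 0.21 and E2 13.59 ± 0.16, against 13.75 ± 0.18 with vehicle (SD, n = 4 each). The interaction of E2 with DHT was 0.35 ± 0.20 (adjusted p = 0.951), that with MPA 0.43 ± 0.20 (adjusted p = 0.329) and that with P4 0.13 ± 0.20 (adjusted p = 0.869), so that a difference in the response of CLDN1 with and without E2 was not shown. Without the arrays in doubt they were 0.39, 0.47 and 0.18 (adjusted p = 0.9988 for DHT, 0.257 for MPA and 0.736 for P4). All neighbours in the order of the 9 group means overlapped.

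**Figure D2:**
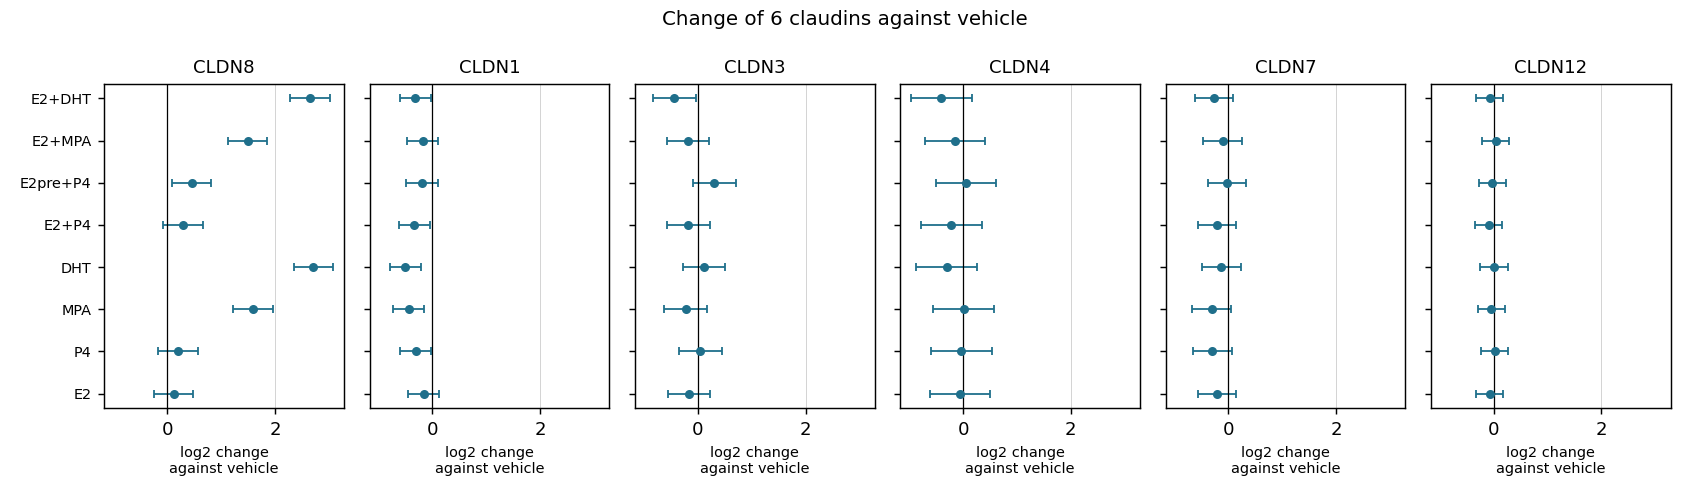
Change of each of the 6 claudins against vehicle (horizontal axis, log2 difference of group means) by treatment group (vertical axis); points are the model estimates from 4 arrays a group and bars the 95% intervals, with the first probe shown for CLDN8. CLDN8 lies between 1.49 and 2.71 in the 4 groups with MPA or DHT, while the other 5 claudins lie between -0.51 and 0.31 with all arrays included.

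CLDN3 and CLDN4, neighbouring genes on chromosome 7 that are both markers of luminal breast epithelium, could be followed with unequal precision. CLDN3 was detected on 36 of 36 arrays. With E2pre+P4 it read 11.55, 11.08, 11.71 and 11.86, where 11.08 is the array in doubt, against 10.95, 11.37, 10.70 and 11.26 with E2+P4. The difference of 0.48 ± 0.19 was not called (adjusted p = 0.9995, where 0.0101% of all genes were called), and was 0.64 without both arrays (adjusted p = 0.115). E2pre+P4 then stood above E2+P4 on 3 of 3 arrays, without overlap.

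CLDN3 with E2+DHT had the lowest group mean, 10.81 ± 0.38, against 11.36 ± 0.21 with DHT alone (SD, n = 4 each). The arrays did not overlap, at 11.10, 10.88, 10.9985 and 10.25 with E2+DHT against 11.34, 11.66, 11.22 and 11.21 with DHT. The change of -0.55 ± 0.19 was not called (adjusted p = 0.248). Against vehicle no CLDN3 change was called in any group, and they ran from -0.44 with E2+DHT to 0.31 with E2pre+P4. The E2pre+P4 change was 0.46 without the arrays in doubt (adjusted p = 0.162), when its arrays no longer overlapped those of vehicle.

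CLDN4 was detected on 6 of 36 arrays: 1 of 4 in the E2+DHT, E2pre+P4, E2 and vehicle groups, 2 of 4 in the MPA group and 0 of 4 in the others. Its values of 5.99 to 7.54 lay at the limit of detection, no change was called, and no fold is given. At this signal a change in CLDN4 was not measurable on most arrays.

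CLDN7, which binds EPCAM at the lateral membrane, was detected on 36 of 36 arrays. Its group means ran from 13.18 ± 0.23 with MPA to 13.49 ± 0.31 with vehicle (SD, n = 4 each). The largest change against vehicle was -0.31 ± 0.17 with MPA (interval -0.67 to 0.04, adjusted p = 0.223). The arrays of all neighbouring groups overlapped.

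CLDN12, a claudin without the usual scaffold-binding end, had the smallest span. Its 9 group means lay within 0.13 of each other, between 10.10 ± 0.16 with E2+P4 and 10.22 ± 0.30 with E2+MPA (SD, n = 4 each). The intervals of its 8 changes against vehicle lay between -0.34 and 0.29.

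**Figure D3:**
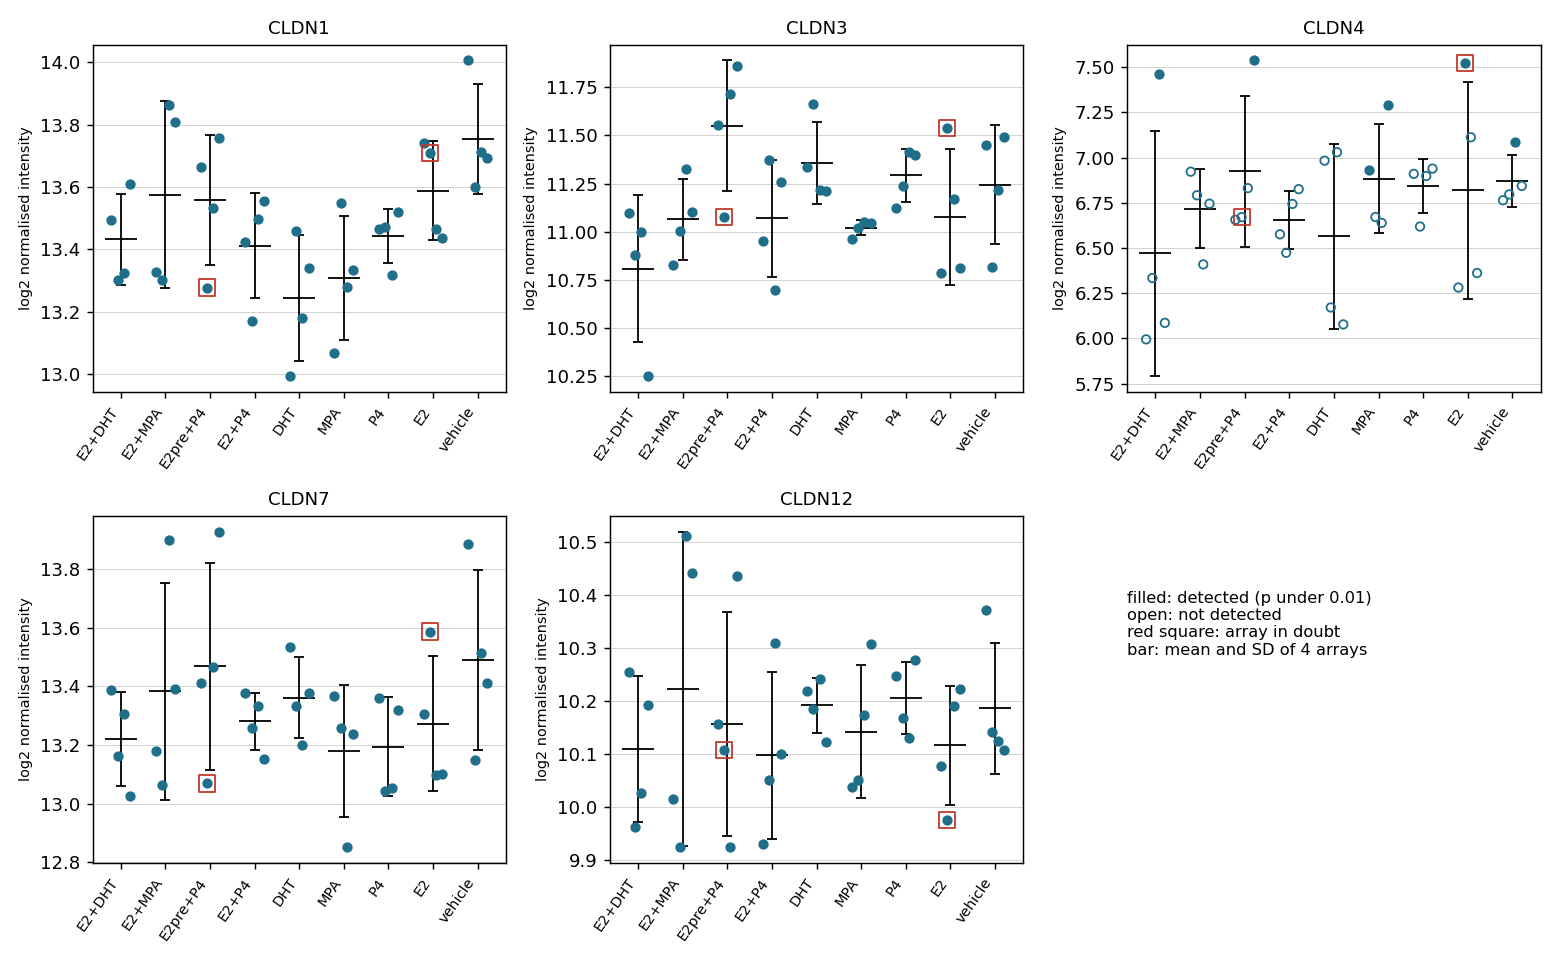
CLDN1, CLDN3, CLDN4, CLDN7 and CLDN12 on each of 36 arrays, as log2 normalised intensity (vertical axes, each with its own range) by treatment group (horizontal axis); filled points were detected, open points were not, bars give the mean and SD of 4 arrays, and red squares mark the arrays in doubt. CLDN1 is lower on the 4 DHT arrays (12.99 to 13.46) than on the 4 vehicle arrays (13.60 to 14.01), and most CLDN4 points are open.

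The steroids were compared for the other 5 claudins as well, in the same 6 pairs. The 30 differences lay between -0.32 and 0.34, with intervals reaching from -0.88 to 0.73, and 0 were called. The lowest unadjusted p was 0.0915, for DHT against MPA in CLDN3 (0.34 ± 0.19). Adjusted over the 6 pairs of a claudin, the lowest p was 0.291. These intervals do not show that the steroids act alike on these claudins. The bound of -0.88 is that of CLDN4 for DHT against MPA, detected on 0 of 4 and 2 of 4 arrays. At this signal it does not bound a difference in the CLDN4 transcript.

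Read over the 6 claudins, the calls were few. CLDN8 is left out of the counts for comparisons with MPA or DHT, since it was chosen for these changes. None of the other 5 claudins was called with MPA (1.96% of all genes called), E2+MPA (3.87%) or E2+DHT (4.81%) against vehicle. The same held with E2+MPA (0.889%) and E2+DHT (0.818%) against E2. With E2 (1.37%), E2+P4 (1.92%) and E2pre+P4 (6.18%) against vehicle, 0 of 6 claudins were called. The median change of the other 5 claudins ran from -0.32 with E2+DHT to -0.02 with E2pre+P4. The median over all genes lay between -0.12 and -0.01 in the same comparisons. It was -0.12 with P4 and with MPA, and it moved to 0.01 (P4) and -0.00 (MPA) with cyclic loess normalisation and to 0.06 (P4) and 0.07 (MPA) in the deposited value table, so a change near 0.1 has no settled sign. Adding E2 to P4 (1.28%), MPA (1.15%) or DHT (1.15%) gave 0 calls among the other 5 claudins.

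Of 18 further claudins listed, 16 had a probe, and 4 passed the filter. CLDN14, CLDN15 and CLDN23 were detected on 36 of 36 arrays and CLDN18 on 7, and the remaining 12 on 0 arrays. These 12 include CLDN17 and CLDN16, which RefSeq (GRCh38.p14) places next to CLDN8 (chromosome 21) and next to CLDN1 (chromosome 3). None of the 4 was called in any comparison.

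The nearest to the threshold was CLDN15, a claudin that forms cation pores, with E2+MPA. It read 10.00, 9.94, 9.69 and 8.59 with E2+MPA, against 10.21, 10.18, 10.26 and 10.55 with vehicle, a difference of -0.75 ± 0.23 (adjusted p = 0.0550). It passed the threshold without E2+MPA replicate 1 (-0.89, adjusted p = 0.0228) or 2 (-0.88, 0.0342), and was -0.43 without E2+MPA replicate 4 (0.339). CLDN23 read 10.48, 10.23, 9.89 and 9.77 with E2+DHT, against 11.13, 10.62, 10.65 and 10.51 with vehicle, a difference of -0.63 (adjusted p = 0.0687) that passed it without vehicle replicate 2 (-0.67, 0.0475) or E2+DHT replicate 1 (-0.76, 0.0316). CLDN14 read 10.13, 10.22, 10.09 and 10.36 with P4 and 9.98, 9.86, 10.31 and 10.34 with MPA, against 9.48, 9.40, 9.75 and 8.92 with vehicle. In these 4 comparisons the treated and the vehicle arrays did not overlap, and the CLDN14 changes of 0.81 (P4, adjusted p = 0.156) and 0.73 (MPA, adjusted p = 0.164) were not called.

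The proteins that claudins attach to or work beside were read from lists of junction genes. Among 15 tested genes for scaffold and polarity proteins of the tight junction (24 listed), 0 were higher and 3 lower with DHT against vehicle (1.3% of all genes were lower), 3 lower with E2+DHT (2.7%), 3 lower with E2pre+P4 (3.83%, and 2 without the arrays in doubt), and 1 lower each with E2 (0.424%, and 0 without them), MPA (1.15%), E2+P4 (0.778%) and E2+MPA (1.93%). The median change of this list was -0.12 with DHT and -0.26 with E2+DHT, against -0.03 and -0.07 over all genes. With P4, 0 were called.

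CGNL1 (paracingulin), which links tight and adherens junctions to the cytoskeleton, showed the largest of these changes. It read 8.04, 7.96, 8.28 and 8.22 with DHT and 8.39, 8.12, 7.71 and 7.86 with E2+DHT, against 9.32, 9.19, 8.999 and 8.97 with vehicle. The changes were -0.99 ± 0.15 (adjusted p = 6.95e-05) with DHT and -1.10 ± 0.15 (adjusted p = 4.51e-06) with E2+DHT, without overlap of the arrays.

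CGNL1 was also lower with MPA (-0.57 ± 0.15, adjusted p = 0.0363), E2+MPA (-0.58, adjusted p = 0.0194) and E2pre+P4 (-0.54, adjusted p = 0.0259, and -0.59, 0.0194 without the arrays in doubt). These 3 calls were lost without vehicle replicate 1, at -0.50 (adjusted p = 0.196), -0.52 (0.0845) and -0.47 (0.129). The MPA call was also lost without MPA replicate 1 (adjusted p = 0.0563), 3 (0.0832) or 4 (0.129), the E2+MPA call without E2+MPA replicate 4 (0.0772), and the E2pre+P4 call without E2pre+P4 replicate 3 (0.0564) or 4 (0.0753). CGNL1 was lower with DHT than with P4 (-0.95 ± 0.15, adjusted p = 0.000134), and E2+DHT was below E2 (-0.68, adjusted p = 0.0120, and -0.78, 0.00524 without the arrays in doubt) and below E2+P4 (-0.74, adjusted p = 0.00547). The E2 comparison lost its call without E2 replicate 1 (-0.54, adjusted p = 0.115) and without E2+DHT replicate 3 (-0.58, 0.0959) or 4 (-0.63, 0.0723). With P4 alone CGNL1 read 8.91, 9.10, 9.13 and 9.15, which overlapped the vehicle arrays.

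AMOT (angiomotin), a scaffold protein of the polarity complexes, read 8.96, 8.82, 8.53 and 8.72 with DHT and 8.66, 8.46, 8.70 and 8.72 with E2+DHT, against 9.66, 9.49, 9.53 and 9.33 with vehicle. The changes of -0.75 ± 0.16 (adjusted p = 0.00695) and -0.86 ± 0.16 (adjusted p = 0.000650) held with any 1 array left out. With only the groups compared in the fit, the call with DHT was lost (adjusted p = 0.135) and that with E2+DHT was kept. E2+DHT was also below E2 (-0.73, adjusted p = 0.0144), a call lost without E2 replicate 1 (-0.69, 0.0666), E2 replicate 2 (-0.59, 0.119) or E2+DHT replicate 2 (-0.67, 0.0820), and held without both arrays in doubt (-0.59, 0.0266). E2+DHT was below E2+P4 (-0.68, adjusted p = 0.0311), a call lost in each of 8 leave-outs (adjusted p 0.0613 to 0.143). No AMOT change with P4 or MPA was called.

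TJP1 (ZO-1), the scaffold that claudins bind directly, was lower with DHT (-0.51 ± 0.13, adjusted p = 0.0303), E2+DHT (-0.46, 0.0393), E2+P4 (-0.51, 0.0377) and E2pre+P4 (-0.55, 0.0106, and -0.50, 0.0397 without the arrays in doubt). The vehicle arrays read 11.62, 11.07, 11.39 and 10.98, and the DHT arrays 10.81, 10.80, 10.61 and 10.79. The arrays of E2+P4 and E2+DHT overlapped those of vehicle, and those of DHT and E2pre+P4 did not. The spread of the vehicle arrays was wide, and all 4 calls were lost without vehicle replicate 1, when the changes lay between -0.43 and -0.34 (adjusted p between 0.0877 and 0.287). The DHT call was lost in 6 of 8 such leave-outs, those of E2+DHT and E2+P4 in 5 of 8 each, and that of E2pre+P4 in that 1 only.

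**Figure D4:**
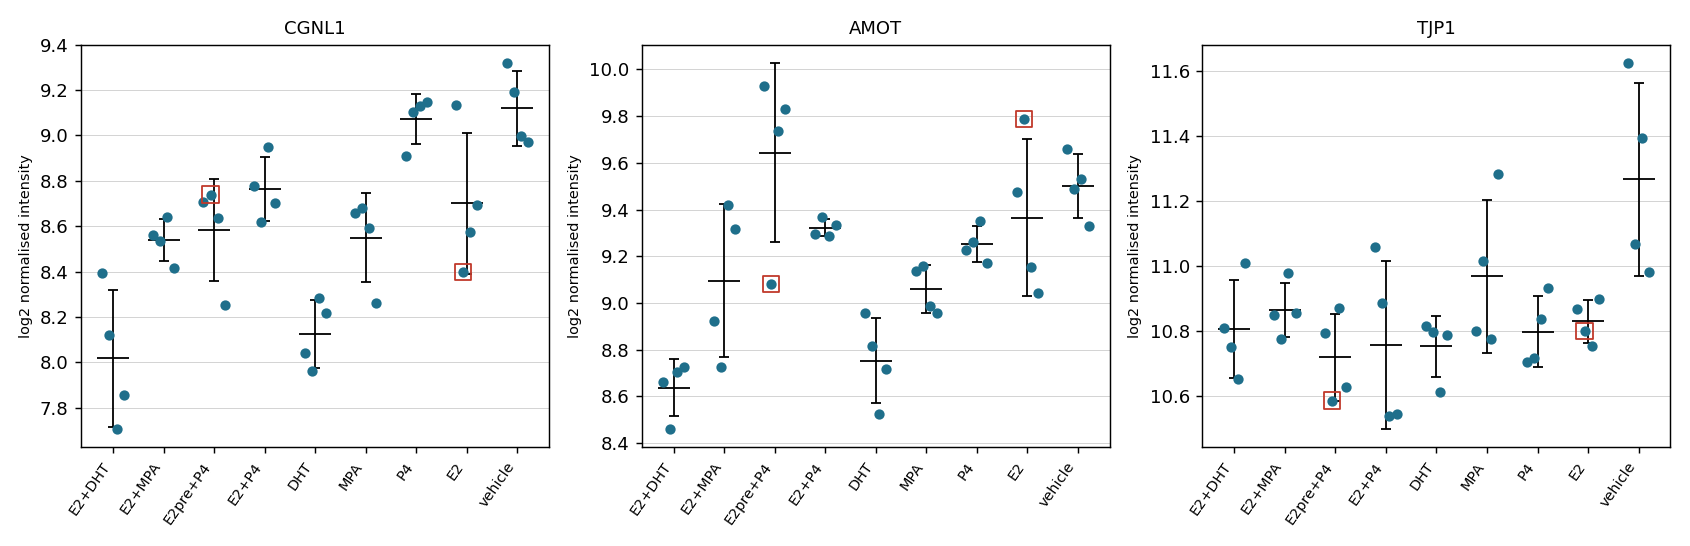
CGNL1, AMOT and TJP1 on each of 36 arrays, as log2 normalised intensity (vertical axes, each with its own range) by treatment group (horizontal axis); points are arrays, all detected, bars give the mean and SD of 4 arrays, and red squares mark the arrays in doubt. CGNL1 and AMOT are lower on the 4 DHT arrays (7.96 to 8.28 and 8.53 to 8.96) than on the 4 vehicle arrays (8.97 to 9.32 and 9.33 to 9.66).

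PALS1, a further polarity scaffold, was lower with E2 (-0.59, adjusted p = 0.0457) and with E2pre+P4 (-0.55, adjusted p = 0.0274), and neither call was left without both arrays in doubt (adjusted p = 0.126 and 0.0626). MPDZ, a multiple PDZ domain scaffold that binds claudins, was higher with DHT than with P4 by 0.94 ± 0.20 (adjusted p = 0.00853, where 1.42% of all genes were called), a call lost without DHT replicate 4 (0.79, adjusted p = 0.0752) or P4 replicate 1 (0.78, 0.0761).

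Among 11 tested membrane proteins of the tight junction other than claudins (13 listed), 1 was lower with E2+MPA (1.93% of all genes were lower), CRB3 (-0.63 ± 0.18, adjusted p = 0.0383), and 1 with E2pre+P4 (3.83%), JAM2 (-0.74 ± 0.18, adjusted p = 0.0106, and -0.87, 0.00191 without the arrays in doubt). CRB3 is an apical polarity protein and JAM2 an adhesion molecule of the immunoglobulin family. Of 16 tested genes of adherens junctions and desmosomes (19 listed), 0 were called in any comparison with vehicle (0% to 6.18% of all genes called) or with E2 (0% to 0.889%).

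Among 5 tested partners and regulators of claudins (11 listed), SPINT1, an inhibitor of the membrane protease matriptase, was lower with E2+DHT (-0.67 ± 0.19, adjusted p = 0.0407, where 2.7% of all genes were lower) and with E2pre+P4 (3.83% lower; -0.68, adjusted p = 0.0299, and -0.53 with adjusted p = 0.117 without both arrays in doubt). Of 10 transcriptional repressors and mesenchymal genes, 2 could be tested. TWIST1, a mesenchymal transcription factor, was lower with E2+DHT (-0.57 ± 0.15, adjusted p = 0.0166) and with E2pre+P4 (-0.48, adjusted p = 0.0450, and -0.60, 0.0158 without the arrays in doubt), beside the same 2.7% and 3.83% of all genes. Of 9 connexins, 2 could be tested, and 0 were called in the same comparisons with vehicle and with E2 (0% to 6.18% of all genes called). Every call of PALS1, CRB3, JAM2, SPINT1 and TWIST1 was lost without vehicle replicate 1. The adjusted p was then 0.307 (E2) and 0.188 (E2pre+P4) for PALS1, 0.0858 for CRB3, 0.0712 for JAM2, 0.165 (E2+DHT) and 0.135 (E2pre+P4) for SPINT1, and 0.112 (E2+DHT) and 0.248 (E2pre+P4) for TWIST1. Each of these genes also lost calls in other leave-outs. CRB3 lost its call without E2+MPA replicate 4 (-0.44, adjusted p = 0.240) and JAM2 without E2pre+P4 replicate 3 (0.0619). SPINT1 lost that with E2+DHT without E2+DHT replicate 3 (0.111).

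Among the markers of other cell types, VWF, an endothelial gene, moved with CLDN8 in the DHT groups. It was detected on 8 of 8 DHT-containing arrays and on 1 E2+P4 array, at least 2.28-fold higher with DHT and at least 2.55-fold higher with E2+DHT than with vehicle. It passed the filter on dim probes only through the DHT groups, so no p is given. Each bound sets the treated mean against the mean over the vehicle arrays of the lowest detected signal of the array or, where higher, the signal of VWF itself. With MPA, where CLDN8 also stood above vehicle, VWF was detected on 0 of 8 arrays, and CDH5 and KDR, which define endothelium, were at 0 arrays throughout. GATA3, a luminal factor, was lower with E2+DHT (-0.45 ± 0.12, adjusted p = 0.0272), and so was ACTA2 (-0.47, adjusted p = 0.0361). Both calls were lost without E2+DHT replicate 4 (GATA3 -0.41, adjusted p = 0.104, and ACTA2 -0.33, 0.199), without E2+DHT replicate 2 or 3 and without vehicle replicate 4, and that of ACTA2 also without vehicle replicate 1 (0.0931). The part of these genes in the claudin values was not tested.

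The genes whose pattern over the 9 group means was most like that of CLDN8, by Pearson r among 5342 genes whose group means spanned at least 0.5, were UGT2B28 (r = 0.993), UGT2B7 (0.990), UGT2B11 (0.990), WWC1 (0.982) and UGT2B10 (0.975). The UGT2B enzymes couple steroids to glucuronic acid, their probes can share signal between near-identical copies, and WWC1 encodes KIBRA, a scaffold of the Hippo pathway. UGT2B28 and UGT2B10 were detected only in groups with DHT or MPA (UGT2B10 only with DHT), UGT2B11 and UGT2B7 on 1 and 2 arrays outside them, so that these 4 genes passed the filter only through groups where CLDN8 is high. The points share the same arrays, and the 9 means hold 4 that are high for DHT or MPA. For CLDN1 the nearest were FAM217B (0.966), NEIL3 (0.949), XPC (0.944), ZNF503 (0.933) and RRP1B (0.921). For CLDN3 the nearest were CMYA5 (0.863), PLPP2 (0.858), LYPD3 (0.846), HMOX1 (0.845) and MAPRE2 (0.841). Without the arrays in doubt these r were 0.770 for CMYA5, then the lowest of the 5, 0.904 for PLPP2, 0.926 for LYPD3, 0.902 for HMOX1 and 0.897 for MAPRE2. The group means of CLDN4, CLDN7 and CLDN12 spanned less than 0.5 and were not compared in this way.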

How the data were processed

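Gene expression was measured in ZR-75-1 cells on 36 Illumina HumanWG-6 v3 arrays, 4 in each of 9 groups taken from the labels. The authors exported the deposited probe intensity values from BeadStudio, and the deposited table is named as not normalised. The deposited detection column held a fraction that rose with the signal and was read as 1 minus the detection p-value. The submitters' processing notes name limma, with no version. The study's variance stabilisation and ComBat correction were not carried in these values. No chip or batch is given, so no batch term was fitted. The deposited value table of the same arrays was a straight-line change of the signal on each array (largest residual 0.128), with 0.0635% to 43.7% of its values below 0 depending on the array.

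Intensities were corrected by normexp from the detection p-values (offset 16), followed by quantile normalisation and then log2 transformation (neqc, limma 3.58.1 in R 4.3.3 with data.table version 1.17.8). The platform annotation gave 1 gene symbol for 27578 of 48803 probes, several for 13 and none for 21212. A probe was kept if it named 1 gene and was detected (p under 0.01) on 4 or more arrays, and the probe with the highest mean stood for a gene, which left 9902 genes. All 36 arrays entered 1 linear model of the 9 groups (lmFit, eBayes), with 21 comparisons and 3 interactions, and p-values were adjusted over all genes by Benjamini-Hochberg. Precision is limited by the number of arrays. The procedure was tested on simulated data with known changes.

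The claudins and the gene lists were chosen with earlier results of these data known. Named genes were every listed claudin, the other claudins that passed the filter, up to 4 called members of each list by size of change, and the 5 genes most like a claudin whose group means spanned at least 0.5. MPDZ was named after its values were seen. Alternatives were cyclic loess normalisation, no background correction, the deposited value table floored at 16, no detection filter, detection on at least 18 arrays, every probe fitted, only the groups compared, no arrays in doubt, a replicate block and each replicate left out.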

Additional observations from a re-analysis of the deposited data

Results flagged for a closer look

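Within the groups of 4 arrays, 1 array of a claudin stood far from the other 3 in 2 of 63 groups tested, where chance gives about 1 in 20 groups. CLDN4 with P4 read 6.62 on replicate 2 and 6.90 to 6.94 on the other 3 arrays, all of them below the limit of detection. CLDN12 with vehicle read 10.37 on replicate 1 and 10.11 to 10.14 on the other 3 arrays. Before normalisation, replicate 1 had the lowest CLDN12 signal of the 4 vehicle arrays (749.9, against 1059.5 to 1521 on the others).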

How the results depend on the processing

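Of the 144 values of the 6 claudins, no called change turned its sign under any alternative run. Signs of uncalled values turned for 12 with cyclic loess, 28 in the value table and 15 without both arrays in doubt. CLDN8 with E2pre+P4 against vehicle passed the threshold with cyclic loess (0.61, adjusted p = 0.0121), in the value table (0.62, 0.0191) and without both arrays in doubt (0.58, 0.0209). Without background correction CLDN8 changed less: 2.30 with DHT, 1.28 with MPA, 2.24 with E2+DHT and 1.19 with E2+MPA against vehicle, 2.15 with E2+DHT and 1.10 with E2+MPA against E2, 2.16 for DHT and 1.14 for MPA against P4, and 2.03 for E2+DHT against E2+P4. With single replicates left out, CLDN8 ranged from 2.62 to 2.85 with DHT, 1.4996 to 1.74 with MPA, 2.55 to 2.79 with E2+DHT and 1.40 to 1.64 with E2+MPA against vehicle.

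The CLDN1 call with DHT was lost in the value table (-0.44, adjusted p = 0.0581), without a detection filter (-0.51, 0.0587), with every probe fitted (-0.51, 0.0604) and with only the groups compared (-0.51, 0.470), and in 6 of 8 leave-outs (-0.58 to -0.43). It was kept with cyclic loess (-0.44, 0.0380) and without background correction (-0.50, 0.0370). With the replicate block CLDN1 also missed the threshold (-0.51, 0.0533), and CLDN23 with E2+DHT passed it (-0.63, 0.0268). The replicate numbers did not pair the arrays: deviations of same-numbered arrays had a mean r of 0.017 over 144 pairs (-0.008 for other pairs), and 10 of 36 arrays correlated best with their own number. The cause of these changes was not tested.

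With cyclic loess 7 of 25 calls of junction genes were lost, those of CGNL1 with MPA (-0.41, adjusted p = 0.138), E2+MPA (-0.49, 0.0678) and E2pre+P4 (-0.40, 0.127), of TJP1 with DHT (0.0534), E2+P4 (0.0756) and E2+DHT (0.101), and of TWIST1 with E2pre+P4 (0.0919). Starting from the value table lost 13, and fitting only the groups compared lost 20. The number of all genes called moved by over 1.5 times in 17 of 24 comparisons with only the groups compared, among them DHT (32, against 238 in the model of all arrays), MPA (40, against 194), E2 (39, against 136), E2+P4 (87, against 190), E2+MPA (100, against 383), E2+DHT (175, against 476) and E2pre+P4 (76, against 612) over vehicle, E2+MPA (6, against 88) and E2+DHT (31, against 81) over E2, E2+P4 over P4 (325, against 127), E2+MPA over MPA (67, against 114), MPA over P4 (65, against 37), DHT over MPA (19, against 30) and E2+MPA over E2+P4 (18, against 46). Without both arrays in doubt it moved in 8 comparisons, among them E2+MPA over E2 (151, against 88), E2+MPA over E2+P4 (110, against 46), E2+DHT over E2+MPA (62, against 29) E2pre+P4 over E2+P4 (126, against 1), and P4 over vehicle and E2+P4 over E2 (8 each, against 0). With cyclic loess it was 137 for E2+MPA over E2 and 74 for E2+MPA over E2+P4, and with detection on 18 arrays or more, a filter that drops CLDN4, 11 for DHT over MPA (against 30) and 12 for E2+DHT over E2+MPA. The other counts that moved were of 0 to 2 genes. The share of calls over vehicle that were higher was 57.3% (cyclic loess) and 64.3% (value table) for MPA, against 41.2%, was 57.6% and 61.4% for E2+DHT, against 43.9%, and was 55.5% and 56.4% for E2pre+P4, against 38.1%. It was 74.1% in the value table for E2+P4, against 59.5%, and 62.6% for E2+MPA, against 50.1%.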
